A study of Homo sapiens with 2 samples.

Results

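ZNF genes, a large family that encodes zinc finger proteins, are described here as measured in a pair of cultures of a human breast cancer cell line. Of 58233 genes in the deposited table, 556 had a ZNF symbol (ZNF, a number and at most 1 further letter), and 226 of these were chosen by their counts, at least 400 estimated counts summed over both libraries. The rule does not use the difference between the libraries, but the set was proposed with earlier results of these data known. The remaining 330 had fewer counts, and 56 of those were listed at 0 in both libraries. The cells were MDA-MB-231, an established line with mesenchymal features. The shCon culture, with the genotype label Control, carried lentivirus with a control shRNA, and the shMPP7 culture, labelled MPP7 Knockdown, carried lentivirus with an shRNA against MPP7, a scaffold protein of cell junctions. Both were infected at a multiplicity of 10 and kept under puromycin for 7 days, and the labels do not say that either stable line was cloned. Each group is a single library, so no spread between replicates can be had, no p-value is given, and every 95% interval covers counting error only.

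Most ZNF proteins carry C2H2 fingers, short units folded around a zinc ion by cysteines and histidines, and rows of such fingers read DNA. Many also carry a KRAB box, which recruits the co-repressor TRIM28 and, through it, the histone methyltransferase SETDB1 and HP1 proteins, so that H3K9me3 heterochromatin forms, often over transposable elements. KRAB zinc finger genes multiplied by tandem duplication, and large clusters of them lie on chromosome 19. Other ZNF proteins bind promoters or RNA or act in ribosome quality control.

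By GENCODE 29, 222 of the 226 genes were protein coding and 4 were pseudogenes. Letters of the KRAB A box were found in the translation of 115 genes and not in 107. The same search found them in 4.12% of protein-coding genes outside the ZNF names, so some genes can be misread. A box with other letters would be missed, so genes counted as without KRAB letters can still carry one. The linker that joins one finger to the next is the best-known repeat of the family. Over the longest coding sequences of all ZNF symbols in GENCODE 29, the linker peptide was found at 2289 sites, and 853 of them had the same first 14 bases, ACTGGAGAGAAACC, the most frequent of 55 forms (the next had 155 sites). This form occurred in 58 of the 222 coding sequences counted here (26.1%). Among 19413 other protein-coding genes it occurred in 25 (0.129%), each with at least 3 fingers. Neither set held it on the opposite strand. Of the ZNF holders, 52 had KRAB letters and 6 did not, and ZNF91 held the most copies, 15. The stretches below run from the first cysteine codon of one finger to that of the next, 84 bases of coding sequence from GENCODE 29 (GRCh38). They show 5 genes with the repeat and low ratios, ZNF148 with a low ratio and no such letters, and 3 genes with high ratios. Capitals mark the linker letters.
ZNF585B: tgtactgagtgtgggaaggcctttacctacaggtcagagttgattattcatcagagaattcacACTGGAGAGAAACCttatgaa
ZNF701: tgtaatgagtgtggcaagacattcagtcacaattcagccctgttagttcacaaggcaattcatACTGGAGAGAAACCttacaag
ZNF761: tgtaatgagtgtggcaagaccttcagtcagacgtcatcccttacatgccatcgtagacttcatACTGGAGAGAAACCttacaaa
ZNF91: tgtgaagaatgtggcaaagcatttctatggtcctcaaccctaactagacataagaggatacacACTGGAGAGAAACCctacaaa
ZNF84: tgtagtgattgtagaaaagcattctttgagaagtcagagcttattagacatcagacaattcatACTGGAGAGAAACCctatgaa
ZNF148: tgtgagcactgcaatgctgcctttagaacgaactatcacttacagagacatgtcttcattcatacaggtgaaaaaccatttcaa
ZNF771: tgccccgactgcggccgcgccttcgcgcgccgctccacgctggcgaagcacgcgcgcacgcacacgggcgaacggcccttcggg
ZNF787: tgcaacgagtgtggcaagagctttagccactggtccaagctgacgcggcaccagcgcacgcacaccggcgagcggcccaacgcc
ZNF324: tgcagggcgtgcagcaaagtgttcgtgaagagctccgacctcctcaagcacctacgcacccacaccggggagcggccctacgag
The genes lie at chr19:37181579-37218153 (ZNF585B, minus strand), chr19:52555457-52587174 (ZNF701, plus), chr19:53431993-53458261 (ZNF761, plus), chr19:23304991-23395560 (ZNF91, minus) and chr12:133037292-133063304 (ZNF84, plus). ZNF148 lies at chr3:125225561-125375354 (minus), ZNF771 at chr16:30407297-30431108 (plus), ZNF787 at chr19:56087366-56121280 (minus) and ZNF324 at chr19:58467045-58475436 (plus). The table held no coordinates and the submitters' processing notes name hg19, so these positions are those of GENCODE 29 matched by Ensembl ID. The stretches of ZNF771 and ZNF787 were 78.6% and 66.7% G or C, and those of ZNF761 and ZNF84 44.0% and 35.7%.

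The control library held 23928620 estimated counts and the knockdown library 24513089. MPP7 itself had 42 and 21, a ratio of 0.488 (0.275 to 0.843) in CPM, the count scaled to a common library total. VIM, CD44, AXL, CAV1 and EGFR, which this line is known to express, had at least 4523 counts per library, while CDH1, ESR1 and PGR had at most 5. ERBB2, which like these and EPCAM was listed beforehand as low or absent, had 2442 in the control and 2695 in the knockdown library. Of markers of other cell types, PTPRC, CD3E, DCN and VWF had at most 3 counts, PECAM1 had 68 and 73 and CD14 had 121 and 176. The stromal genes PDGFRB and COL1A1 had 467 and 252 in the control and 393 and 308 in the knockdown library, and the epithelial gene EPCAM had 165 and 148. Their part in the values below was not tested. The ZNF genes took 0.575% of the control counts and 0.547% of the knockdown counts.

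As a set, the ZNF genes stood slightly lower in the knockdown library. Their median log2 CPM ratio (shMPP7 over shCon) was -0.097, and that of 8247 other protein-coding genes in the same range of counts was -0.023. The ratio was below 1 for 150 of the 226 (66.4%), and for 55.6% of all 9925 genes that reached 400 counts. A difference of 0.32 on the log2 scale, a CPM ratio of 0.8 or less or of its inverse or more, served as a fixed size. In the lower direction 30 ZNF genes reached it (13.3%), where 4.78% of all genes did. In the higher direction 4 reached it (1.77%), where 1.28% of all genes did. At 1.5-fold, 3 were lower (1.33%, against 0.272% of all genes) and none was higher (0.111% of all genes). The counting interval lay below 1 for 67 ZNF genes (29.6%, against 23.6%) and above 1 for 21 (9.29%, against 15.4%). The 8247 other genes share the range of counts but were deeper, with a median summed count of 1821.3 against 877.81 for the ZNF genes. Narrower ranges of counts are compared below. Of the 8247, 5% were lower and 1.29% higher by the fixed size. Of these genes 23.6% had an interval below 1, 12.5% an interval above 1 and 57.2% a ratio below 1. The summed level of the set was 5749 CPM with the control hairpin and 5470.2 CPM with the MPP7 hairpin, a ratio of 0.951 (0.944 to 0.959). In RNA from whole cultures, fewer cells with a transcript and less of it per cell cannot be told apart.

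The lower position was seen among the shallower genes. Between 400 and 800 counts, 105 ZNF genes had a median log2 CPM ratio of -0.13 and 1458 other genes -0.055. In that range 23 ZNF genes (21.9%) and 157 others (10.8%) were lower by the fixed size. Between 800 and 1600 counts the medians were -0.16 for 71 ZNF genes and -0.043 for 2168 others. Here 7 ZNF genes (9.86%) and 134 others (6.18%) were lower by that size. Between 1600 and 3200 counts they were 0.010 for 39 ZNF genes and -0.023 for the others, and no ZNF gene reached the fixed size. From 3200 counts they were -0.024 for 11 ZNF genes and -0.0034 for the others, and ZNF787 alone reached it, in the higher direction. Counting gives a typical SD of 0.097 to the log2 ratio of a ZNF gene, and the robust SD of the set was 0.19. For the other genes these values were 0.068 and 0.15.

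**Figure D1:**
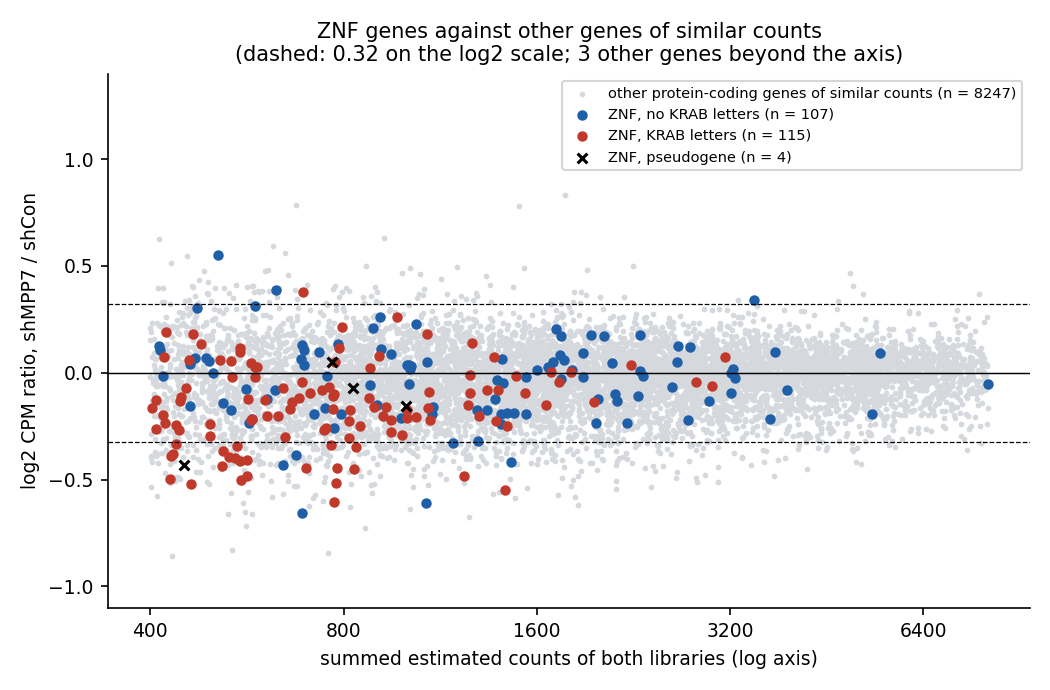
Log2 CPM ratio (shMPP7 over shCon) against summed estimated counts of both libraries (log axis) for 226 ZNF genes, coloured by KRAB letters, and 8247 other protein-coding genes in grey. Dashed lines mark 0.32 on the log2 scale, and 23 of the 30 ZNF genes under the lower line have fewer than 800 counts.

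The 12 ZNF genes with the lowest ratios spanned 0.634 to 0.734, and every counting interval lay below 1. ZNF292, a large protein reported as a tumour suppressor, was counted 417 times in the control and 271 times in the knockdown library (17.4 and 11.1 CPM), a ratio of 0.634 (0.542 to 0.741). ZNF148, which binds GC-rich promoter sequence, was counted 643 and 432 times (26.9 and 17.6 CPM), a ratio of 0.656 (0.579 to 0.742). These were the 2 of the 12 without KRAB letters. ZNF585B, a KRAB gene with 21 fingers, was counted 461.36 and 310.97 times (19.3 and 12.7 CPM), a ratio of 0.658 (0.568 to 0.762). Its paralog ZNF585A, named after its value was seen, stood at 0.918 (0.774 to 1.08). A stretch of ZNF585A is near-identical to ZNF585B, so reads of the pair can be split between them. ZNF544 was counted 838.74 and 586.99 times (35.1 and 23.9 CPM), a ratio of 0.683 (0.614 to 0.760). In deposited FPKM, a level scaled by transcript length, it was the most abundant of the 12, at 40.7 and 24.6.

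ZNF701 and ZNF761 lie in the same stretch of chromosome 19. They were counted 269.9 and 192.82 times and 453.18 and 324.32 times, with ratios of 0.697 (0.577 to 0.842) and 0.699 (0.604 to 0.807). ZNF91, which represses SVA retrotransposons and has 32 fingers, was counted 321.03 and 232 times, a ratio of 0.705 (0.593 to 0.838). ZNF439 stood at 0.710 (0.583 to 0.863), ZNF587 at 0.716 (0.638 to 0.802) and ZNF84 at 0.716 (0.603 to 0.848). ZNF528 stood at 0.733 (0.637 to 0.843) and ZNF548 at 0.734 (0.630 to 0.855). Of the 12 genes, 9 lie on chromosome 19 and 8 hold the linker letters printed above. Reads of several can be split with other genes. ZNF761 shares stretches of at least 97% identity over 100 bases with ZNF28, ZNF468, ZNF765, ZNF813 and ZNF888, ZNF587 with ZNF417, and ZNF701 with ZNF888. ZNF91 shares such stretches with clone-named transcripts, and its control count was not whole. Exons of ZNF701 overlap those of ZNF808, those of ZNF761 overlap TPM3P9, and those of ZNF585B, ZNF544, ZNF587 and ZNF548 overlap clone-named transcripts, all on the same strand. On the opposite strand, ZNF585B overlaps exons of ZNF383 and ZNF587 those of ZNF814, and ZNF544 and ZNF701 overlap clone-named transcripts. ZNF292, ZNF148, ZNF439, ZNF84 and ZNF528 had no same-strand overlap and no near-identical stretch in the longest transcript, though a clone-named transcript lies opposite ZNF292. The control count of ZNF528, 474.26, was not whole, so its reads too can have been split with another gene.

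**Figure D2:**
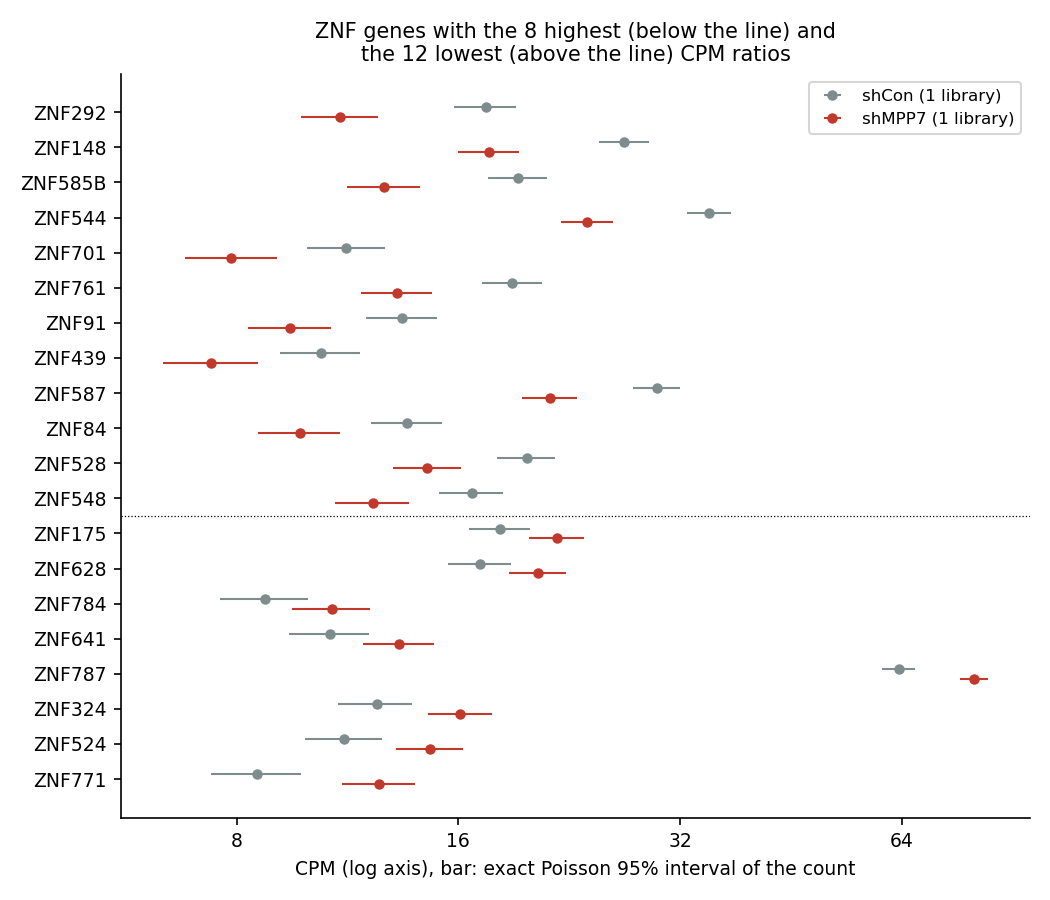
CPM (log axis) in the shCon and the shMPP7 library for the ZNF genes with the 12 lowest and the 8 highest CPM ratios, with bars for the exact Poisson 95% interval of each count. ZNF544 (35.1 and 23.9 CPM) and ZNF787 (63.4 and 80.3 CPM) have intervals well apart, and shallow genes such as ZNF784 (8.73 and 10.8 CPM) have wider ones.

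The 8 highest ratios spanned 1.20 to 1.46, and 6 of these genes had no KRAB letters. ZNF771 was counted 204 times in the control and 306 times in the knockdown library (8.53 and 12.5 CPM), a ratio of 1.46 (1.22 to 1.76). ZNF524 was counted 268 and 359 times (11.2 and 14.6 CPM), a ratio of 1.31 (1.11 to 1.54). ZNF324, a KRAB gene, was counted 296.5 and 394.66 times, a ratio of 1.30 (1.12 to 1.52). Its near-identical neighbour ZNF324B, named after its value was seen, stood at 1.14 (1.01 to 1.28), and reads of the pair can be split between them. ZNF787, counted 1517 and 1969 times, had the narrowest interval of the 8, 1.27 (1.18 to 1.36). ZNF641 stood at 1.24 (1.05 to 1.47), ZNF784 at 1.23 (1.02 to 1.49), ZNF628 at 1.20 (1.05 to 1.37) and the KRAB gene ZNF175 at 1.20 (1.05 to 1.36). ZNF771 overlaps exons of DCTPP1 and ZNF524 those of FIZ1 on the opposite strand, and no source says that strand was used in counting, so such reads cannot be told apart. None of the 8 held the linker letters. Their median transcript GC content was 61.8%, and that of the 12 lowest 41.2%.

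KRAB genes lay lower than the other ZNF genes. The median log2 CPM ratio was -0.16 with KRAB letters and -0.014 without. Of the 30 genes lower by the fixed size, 23 had KRAB letters, 6 did not and 1 was a pseudogene. ZNF324 was the only KRAB gene higher by that size. The summed CPM ratio was 0.911 (0.900 to 0.923) with KRAB letters and 0.977 (0.968 to 0.986) without. KRAB genes also had a lower median transcript GC content, 44.1% against 51.6%, and fewer counts, with medians of 750 and 1296. The part of both in this difference was not tested apart from the comparison at like GC content given further on. Of the pseudogenes, ZNF702P stood at 0.741 (0.612 to 0.896), while the intervals of ZNF788 at 0.898 (0.791 to 1.02), ZNF271P at 0.951 (0.827 to 1.09) and ZNF252P at 1.04 (0.897 to 1.20) included 1.

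Position split the KRAB genes further. On chromosome 19, 69 KRAB genes had a median log2 CPM ratio of -0.20, with 57 below 0. On other chromosomes 46 had -0.10. Without KRAB letters the order was reversed, with 0.073 for 22 genes on chromosome 19 and -0.052 for 85 elsewhere. The 432 other protein-coding genes of chromosome 19 were not lower, with a median of 0.041. Their median transcript GC content was 60.3%, close to the 61.1% of the ZNF genes there without KRAB letters and above the 42.6% of the KRAB genes. With a trend in GC content and length removed, the medians were -0.097 and -0.033 for KRAB genes on chromosome 19 and elsewhere. For genes without KRAB letters they were 0.024 and -0.0086, and both gaps were narrower.

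**Figure D3:**
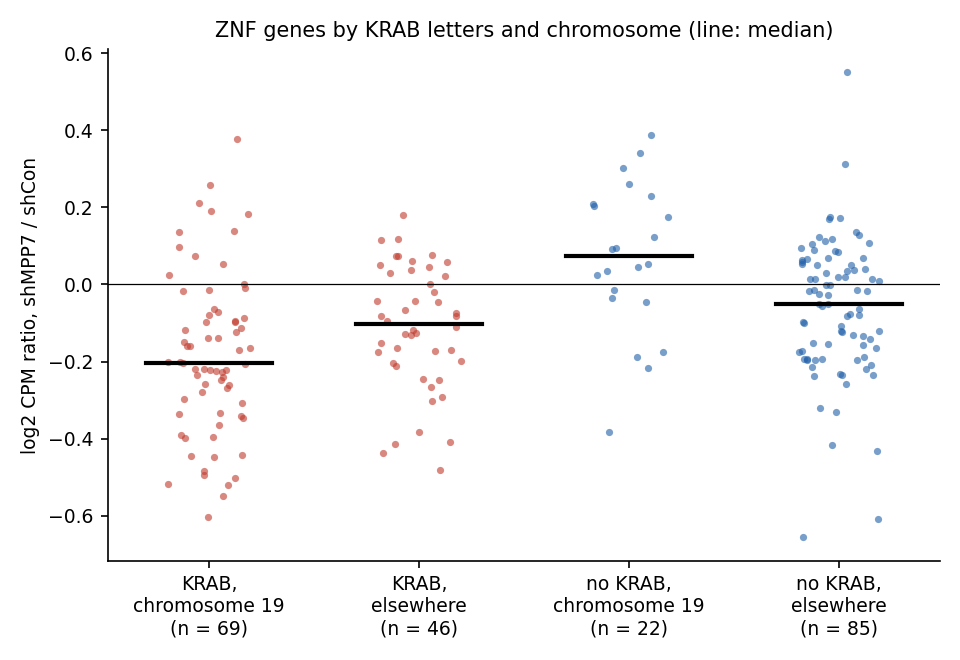
Log2 CPM ratio (shMPP7 over shCon) of single ZNF genes by KRAB letters and chromosome, with a line at each median. KRAB genes on chromosome 19 have the lowest median, -0.20, genes there without KRAB letters the highest, 0.073, and all 4 groups overlap.

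ZNF symbols under 1 Mb apart on chromosome 19 were joined into runs, 7 of which held at least 5 of the counted genes. The run from ZNF175 to ZNF331, chr19:51571298-53580269, had the lowest median. Its 16 genes, 15 of them with KRAB letters, had a median log2 CPM ratio of -0.30, and all but ZNF175 were below 0. Lower by the fixed size were 7 (43.75%, against 4.78% of all genes), among them ZNF701, ZNF761 and ZNF528. An interval below 1 was found for 11 of the 16, and for 23.6% of all genes. The run had a median transcript GC content of 41.6%. Of 3299 other protein-coding genes under 45.02% GC, 10.9% were lower by the fixed size and 1419 had an interval below 1. In the other runs, 11.1% to 40% of the genes were lower by that size. Summed, the run stood at 260.2 CPM in the control and 218 CPM in the knockdown library. Its median was -0.32 in FPKM. Near-identical stretches join several of these genes, so they are not independent measurements. The run from ZNF628 to ZNF446, chr19:55476332-58481230, held 35 genes with a median of -0.079. It holds ZNF544, ZNF587 and ZNF548 as well as ZNF524, ZNF324, ZNF787, ZNF784 and ZNF628, and so both ends of the range. The other 5 runs had medians between -0.23 and -0.090.

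The ratio followed transcript GC content among ZNF genes as among other genes. Across the 226 ZNF genes, Spearman's rho of log2 CPM ratio with GC content was 0.60, and across the other genes 0.47. With transcript length the values were -0.37 and -0.39. All genes come from the same 2 libraries, so these are descriptions. The median ZNF transcript was 46.0% G or C and 4669.5 bases long, and that of the others 47.7% and 3854 bases.

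The other genes were then cut into 5 ranges of GC content with equal numbers of genes. Under 40.46%, the median log2 CPM ratio was -0.16 for other genes, -0.22 for 22 KRAB genes and -0.23 for 19 ZNF genes without the letters. From 40.46% to 45.02% it was -0.073 for other genes, -0.25 for 41 KRAB genes and -0.079 for 17 ZNF genes without the letters. That range showed the widest gap between KRAB and other genes. From 45.02% to 51.02% it was -0.013 for other genes, -0.082 for 36 KRAB genes and -0.16 for 14 ZNF genes without the letters. Up to 57.88% it was 0.026 for other genes, 0.025 for 6 KRAB genes and -0.00019 for 23 ZNF genes without the letters, and above that 0.046 for other genes, 0.045 for 10 KRAB genes and 0.095 for 34 ZNF genes without the letters. At like GC content, KRAB genes thus had the lower median of the ZNF classes in 2 of the 5 ranges and the higher in 3.

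**Figure D4:**
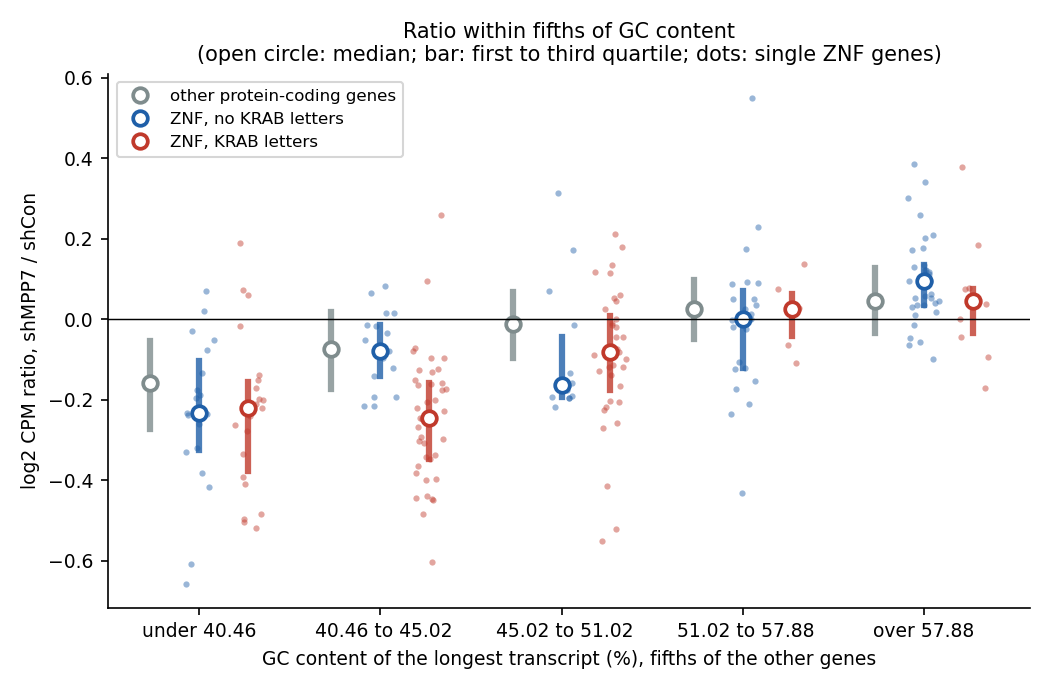
Log2 CPM ratio (shMPP7 over shCon) within 5 ranges of transcript GC content (%) for other protein-coding genes, ZNF genes without KRAB letters and KRAB genes. Open circles are medians, bars run from the first to the third quartile, dots are single ZNF genes, and KRAB genes from 40.46% to 45.02% stand lowest at -0.25.

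Subtracting a smooth trend in GC content and length, fitted over protein-coding genes, left a smaller difference. The median of the ZNF genes was then -0.039, and that of the other genes 0.0021. By the fixed size 16 ZNF genes were lower (7.08%, against 1.55% of all genes) and 4 higher (1.77%, against 1.29%). All 16 were among the 30. The median of the KRAB genes was -0.060 and that of the genes without KRAB letters -0.0052. The run from ZNF175 to ZNF331 stood at -0.20. The 12 lowest genes lay between -0.52 (ZNF544) and -0.32 (ZNF91), and ZNF771 was highest at 0.50. What gives the 2 libraries different GC trends was not tested.

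Genes with the linker letters had a median log2 CPM ratio of -0.22 and those without -0.044. Of the 30 lower genes 18 were holders, and no holder was higher by the fixed size. Holders had a median transcript GC content of 41.5%, the others 49.0%. Among KRAB genes under 45.02% GC the gap was small, with -0.25 for 42 holders and -0.22 for 21 others. After the trend was subtracted, holders had a median of -0.11 and genes without the letters -0.013. Among all KRAB genes these values were -0.092 and -0.049. A count that was not whole, which a read split between genes can give, was found in 46.6% of the holders and 33.5% of the others. The ratio also lay lower with more fingers, at -0.010 for 44 genes with up to 4, -0.060 for 68 with 5 to 9, -0.14 for 66 with 10 to 14 and -0.17 for 44 with more. With the trend removed these medians were 0.022, -0.020, -0.054 and -0.066.

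The most abundant ZNF genes lay near a ratio of 1. ZNF207, a spindle assembly factor, was counted 4057 and 4010 times, a ratio of 0.965 (0.923 to 1.01). Its deposited FPKM, 82.1 and 82.7, was the highest among the ZNF genes named here. ZNF185, an actin-associated LIM protein in which no C2H2 finger was found, was counted 2620 and 2857 times, a ratio of 1.06 (1.01 to 1.12). ZNF664 was counted 2808.99 and 2516.94 times and was the lowest of the 5 with most counts, at 0.875 (0.829 to 0.923). ZNF106, an RNA-binding protein, stood at 0.947 (0.889 to 1.01), and ZNF598, the ubiquitin ligase that senses collided ribosomes, at 1.07 (1.00 to 1.14).

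Several ZNF genes known from breast cancer had intervals that included 1. ZNF217, an oncogene, was counted 1639 and 1570 times, a ratio of 0.935 (0.872 to 1.00). ZNF703, a repressor amplified in luminal tumours, was counted 1314 and 1287 times, a ratio of 0.956 (0.885 to 1.03). ZNF687 stood at 0.934 (0.857 to 1.02). Of promoter-binding factors, ZNF143 stood at 0.965 (0.851 to 1.09) and ZNF410, which sustains CHD4 transcription, at 0.919 (0.841 to 1.00). ZNF274, a KRAB protein that recruits SETDB1 to zinc finger genes, stood at 0.957 (0.890 to 1.03). The repressor ZNF746 stood at 0.945 (0.848 to 1.05), and ZNF622, a factor of ribosome maturation, at 1.01 (0.914 to 1.12). The intervals of all 8 included 1.

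The studied genes with intervals below 1 numbered 7, of which ZNF148 and ZNF91 are given above. Such an interval was found for 29.6% of the 226 ZNF genes and for 23.6% of all genes that reached 400 counts. ZNF638, which silences unintegrated retroviral DNA, was counted 824 and 632 times, a ratio of 0.749 (0.674 to 0.831). Its deposited FPKM was close to equal, at 6.915 in the control and 7.035 in the knockdown library. The SUMO ligase gene ZNF451 stood at 0.849 (0.776 to 0.928), and ZNF326, which links splicing with elongation, at 0.873 (0.774 to 0.985). ZNF281 stood at 0.875 (0.791 to 0.968) and ZNF24 at 0.912 (0.848 to 0.981). With the GC and length trend removed, ZNF638 and ZNF281 had log2 ratios of -0.26 and -0.099. Those of ZNF451, ZNF326 and ZNF24 were then -0.016, 0.057 and 0.075. ZNF93, which represses LINE-1 elements, and ZNF10, whose KRAB domain is widely used as a repressor, fell short of 400 counts and stood at 0.928 (0.730 to 1.18) and 0.830 (0.614 to 1.12).

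The co-repressors that KRAB proteins recruit were also measured. TRIM28 had 17441 and 18425 counts, a ratio of 1.03 (1.01 to 1.05), and SETDB1 stood at 0.924 (0.841 to 1.02). The HP1 genes CBX1, CBX3 and CBX5 stood at 0.915 (0.868 to 0.964), 0.816 (0.766 to 0.869) and 0.836 (0.789 to 0.887). These 5 were named for their role in KRAB repression. Over 30 listed co-repressor and heterochromatin genes the median log2 CPM ratio was -0.080, and over all genes that reached 400 counts -0.017. By the fixed size 3 were lower, where 4.78% of all genes were, and none was higher, where 1.28% were. They were MORC3 at 0.697 (0.609 to 0.798), ATRX at 0.751 (0.681 to 0.827) and SMARCAD1 at 0.798 (0.730 to 0.873). With the GC and length trend removed, their log2 ratios were -0.36, -0.16 and -0.13, so only MORC3 still reached the fixed size. In deposited FPKM, ATRX was higher in the knockdown library, at 9.387 in the control and 11.113 in the knockdown library. FAM208A, a subunit of the HUSH silencing complex, stood at 0.807 (0.739 to 0.881). ZNF274 is in this list and among the ZNF genes.

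Deposited FPKM gave less of a shift. The median log2 FPKM ratio was 0.0014 for the ZNF genes and 0.041 for the other genes. By the fixed size 26 ZNF genes were lower in FPKM (11.5%, against 5.67% of all genes) and 21 higher (9.29%, against 5.51%). Of the 30 lower in CPM, 13 were also lower in FPKM. The sign differed for 54 genes, and Spearman's rho between the log2 ratios was 0.70. ZNF148 had FPKM of 6.33 and 6.21, close to equal, where its counts were lower. ZNF175 had FPKM of 7.19 and 5.66, lower where its counts were higher. ZNF28, named after its values were seen, was counted 242.38 and 197 times but had FPKM of 3.62 and 10.2. ZNF292, ZNF585B, ZNF544 and ZNF771 went the same way in both, with log2 FPKM ratios of -0.89, -0.72, -0.72 and 0.63.

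**Figure D5:**
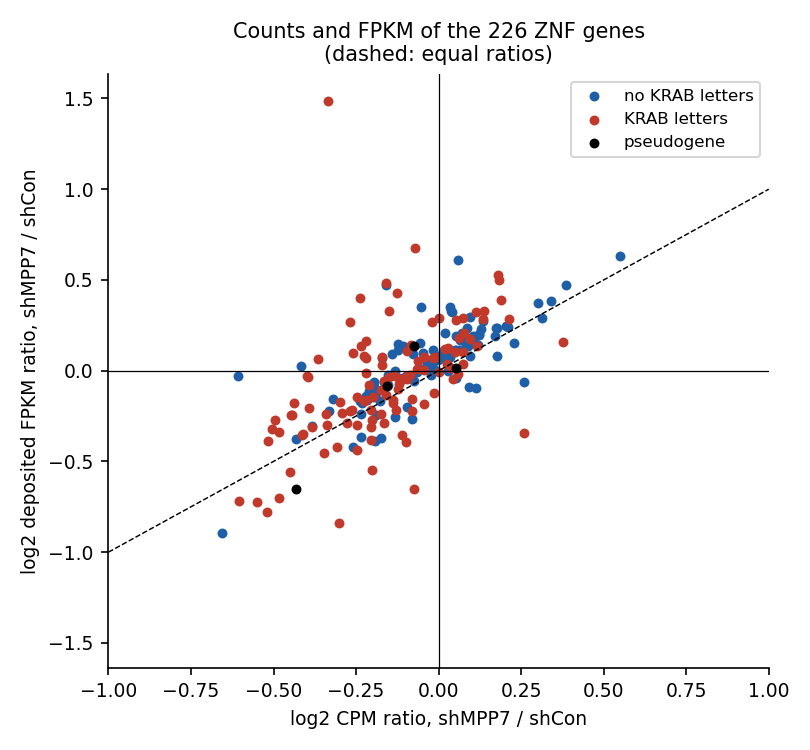
Log2 ratio of deposited FPKM against log2 CPM ratio (shMPP7 over shCon) for 226 ZNF genes, with a dashed line of equal ratios. The sign differs for 54 genes, and ZNF28 is the point at the top, at 1.49 in FPKM.

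At the edge of the count minimum, ZNF268, ZNF43 and ZNF736 had 402, 408 and 409 summed counts, with ratios of 0.892 (0.730 to 1.09), 0.834 (0.683 to 1.02) and 0.916 (0.751 to 1.12). Just outside it, ZNF654, ZNF550 and ZNF141 had 399, 397.09 and 395, with ratios of 0.732 (0.597 to 0.897), 0.834 (0.681 to 1.02) and 0.753 (0.613 to 0.923). The 174 ZNF genes between 100 and 400 counts had a median log2 CPM ratio of -0.16.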

How the data were processed

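The deposited table holds an estimated count and an FPKM value per Ensembl gene and library, per the file headers, and groups follow the genotype labels. TopHat2 2.0.9, Cuffdiff and hg19 are named in the submitters' processing notes without a role, and the sources used here do not say what made the counts. Of counts above 0, 71.8% (shCon) and 73.0% (shMPP7) were whole.

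CPM is the count over the library total, with no pseudocount. Ratios carry exact Clopper-Pearson 95% intervals of the rounded counts. Reads without molecular identifiers are not independent molecules, so intervals cover counting error only. With 1 library per group no test was made.

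Positions, transcript lengths, GC contents and coding sequences came from GENCODE 29 by Ensembl ID (99.3% matched), with the longest transcript per gene. KRAB letters and fingers were read from translated coding sequences in place of the RefSeq proteins first planned. The trend was cubic in GC content and log2 length, fitted to genes outside the ZNF names from 100 counts up. Overlaps came from bedtools 2.31.1 and near-identical transcripts from blastn 2.17.0, the rest from Python 3.11.15 with numpy 2.4.6, pandas 2.3.3 and scipy 1.17.1. The code was tested on simulated counts.

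Members and lists were chosen with earlier results of these data known. Named genes were the 12 lowest and 8 highest ratios, the 5 with most counts, a list of studied genes, 3 on either side of the count minimum and 4 per other list. Alternatives changed the scaling, pseudocount, count minimum, measure, trend, gene class, whole counts and size.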

Additional observations from a re-analysis of the deposited data

How the results depend on the processing

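The median log2 CPM ratio of the ZNF genes (-0.097) turned to 0.0014 in deposited FPKM. It was -0.13 without a count minimum, -0.052 with at least 1000 counts and -0.039 with the GC and length trend removed. Its gap to the other genes (-0.073) was -0.034 with at least 1000 counts. The difference between KRAB genes and the rest (-0.14) was -0.070 with at least 1000 counts and -0.054 with the trend removed. The difference between chromosome 19 and elsewhere (-0.082) turned to 0.011 with at least 1000 counts. The 30 genes lower by the fixed size became 81 with at least 100 counts, 113 without a minimum, 5 with at least 1000 counts, 16 with the trend removed and 18 among genes with whole counts. They became 3 at 1.5-fold, 67 by the counting interval, 10 among genes without exon overlap and 18 among those without a near-identical transcript. Whole counts, no exon overlap and no near-identical transcript left 143, 111 and 170 ZNF genes. Of these 12.6%, 9.01% and 10.6% were lower, where 13.3% of all 226 were. Of the other protein-coding genes with whole counts 5.18% were lower. The 4 higher genes became 14, 26 and 1 under the minimum of 100 counts, no minimum and 1000 counts. They became 21 in FPKM, 0 at 1.5-fold, 21 by the counting interval and 1 without exon overlap. The minimum of 100 counts, no minimum and that of 1000 took in 400, 479 and 97 ZNF genes, of which 20.3%, 23.6% and 5.15% were lower. Of all genes 7.47%, 17.4% and 3.12% were lower and 3.07%, 12.2% and 0.638% higher. Higher minimums, whole counts and the overlap and identity limits leave fewer genes. For FPKM and the trend the cause was not tested. The overlap and identity limits were chosen after seeing the data. Other scaling, by the median ratio of all genes, gave 26 lower and 6 higher. No paired analysis was possible because each group has 1 library, and for the same reason none could be left out. Depth limits genes near 400 counts, such as ZNF268 with its interval of 0.730 to 1.09.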

Other observations

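Zinc finger genes outside the ZNF symbols were also measured. Over 71 genes with ZBTB, ZFP, ZKSCAN, ZSCAN, KLF or SP names that reached 400 counts, the median log2 CPM ratio (shMPP7 over shCon) was -0.061, and 7 were lower and none higher by 0.32 on that scale. Of all genes that reached 400 counts, 4.78% were lower and 1.28% higher by that size. ZBTB37 was the lowest, at a CPM ratio of 0.679 (0.572 to 0.805), and ZFP28, a KRAB zinc finger gene, stood at 0.752 (0.642 to 0.881). ZBTB41 stood at 0.757 (0.628 to 0.911) and ZBTB25 at 0.773 (0.636 to 0.939). The 71 genes were drawn by name and not by fold, and they take in ZFP36 and ZFP36L1, whose fingers are not C2H2. The 5 ZKSCAN genes, named for a SCAN domain beside the fingers and KRAB box, all had ratios below 1, where 55.6% of all genes did. None of the 5 reached 0.32 on the log2 scale. Their median log2 CPM ratio was -0.24. With the GC and length trend removed it was -0.17, and that of the 71 genes was -0.015. The 103 genes with ZC3H, ZDHHC, ZMYND, RNF or PHF names, whose zinc-binding folds are of other kinds, had a median of -0.0094, with 3 lower and none higher. These were ZC3H12C at 0.775 (0.715 to 0.840), RNF169 at 0.779 (0.686 to 0.886) and PHF3 at 0.783 (0.737 to 0.831), while RNF146 stood at 0.820 (0.712 to 0.944).

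Over 18 zinc transporter and metallothionein genes the median was -0.019, and none reached that size. The zinc-binding metallothionein genes MT2A and MT1E were counted 14494 and 2076 times in the control and 18521 and 2614 times in the knockdown library. Their ratios were 1.247 (1.22 to 1.27) and 1.23 (1.16 to 1.30). The zinc exporter gene SLC30A1 stood at 0.835 (0.760 to 0.917) and SLC30A9 at 0.833 (0.766 to 0.906).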
